A study of Mus musculus with 16 samples.

Results

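The genes described here are 10 members of the transforming growth factor beta (TGF-β) superfamily and its signaling machinery. They are the ligands Mstn, Gdf11, Inhba, Tgfb1, Tgfb2 and Tgfb3, the receptors Tgfbr1, Tgfbr2 and Acvr2b, and the extracellular inhibitor Fst. Each was taken as the protein-coding row that carried its symbol, which gave 10 of the 56941 genes of either table, 21684 of them protein-coding. The 10 genes were selected with fold changes from these libraries already known, so everything below on their differences between groups is a description of the libraries and not a test of them.

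Bulk RNA-seq was performed on 16 libraries from Transwell cocultures of wild-type mouse superior cervical ganglia (SCG) and fibroblast-type cell lines. Explants came from C57BL/6J pups at postnatal days 1 to 4, and 8 to 13 of them were grown per well for about 70 hours in medium with nerve growth factor, so a library pools several explants. They were grown alone (SCG, n = 3), below an insert with 10000 NIH 3T3 cells, a control line of mouse embryonic fibroblasts (SCG+MEF, n = 3), or below an insert with 10000 mPSC1 cells, which are immortalized stellate cells of the mouse pancreas (SCG+PSC, n = 4). The mPSC1 cells themselves were sequenced after culture alone (PSC, n = 3) and above SCG explants (PSC+SCG, n = 3). As far as the labels say, the ganglion groups differ from each other in culture alone, and so do the PSC groups. Each cell type on the inserts is represented by 1 line. No label says whether same-group libraries came from separate litters or cultures, so the errors below cover the spread between these libraries, which may be technical. The study modelled an experimental batch by date, which no label ties to a library, so that spread may also hold differences between batches.

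TGF-β superfamily ligands are secreted as dimers that join a type II receptor to a type I receptor, and the type I receptor then phosphorylates SMAD proteins that enter the nucleus. Myostatin (Mstn), GDF11 and the activins, which are dimers of the inhibin beta chains encoded by Inhba and Inhbb, bind activin type II receptors such as ACVR2B and signal through SMAD2 and SMAD3, as the TGF-βs do through TGFBR2 and TGFBR1. Myostatin is best known as a skeletal muscle product that limits muscle mass, activins and TGF-βs drive fibroblast activation and matrix production, and follistatin (Fst) binds activins, myostatin and GDF11 and keeps them from their receptors.

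Mstn is the gene the results turn on, and GDF11 is its closest relative, so it was measured how alike their transcripts are, since reads of similar genes can be hard to tell apart. Their coding sequences (GRCm39) were identical at 63.7% of aligned bases, and at 74.8% of the last 330 coding bases. The longest run shared without a mismatch by the 2 transcripts was 12 bases. None of the exon bases of any of the 10 genes lay in an exon of another gene on the same strand.

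The 250 bases before the Mstn start, chr1:53100549-53100798 on the + strand, are shown because Mstn was the member that differed between groups. The sequence is from RefSeq promoters and was matched to GRCm39, and capitals mark TATAAA and the E-box CANNTG, the letters bound by muscle and other helix-loop-helix factors.
Mstn promoter: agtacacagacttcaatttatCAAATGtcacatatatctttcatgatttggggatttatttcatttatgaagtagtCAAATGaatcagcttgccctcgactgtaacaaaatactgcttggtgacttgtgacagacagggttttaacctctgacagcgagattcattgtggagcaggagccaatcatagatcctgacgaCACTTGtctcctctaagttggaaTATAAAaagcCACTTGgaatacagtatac
The TATAAA match began 29 bases before the start, and 12.3% of 32536 promoter windows of the same table held one. The E-box was matched 4 times, beginning 229, 174, 52 and 19 bases before the start, and 66.2% of the windows held it. AGAC, the SMAD box, which was not capitalized here, was matched 3 times on either strand and was held by 82.9% of the windows, while its palindrome GTCTAGAC was not matched and was held by 0.169%. No match overlapped another type among TATAAA and CANNTG. A match is a description of letters only.

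Depth was similar across the series. Reads on genes were recovered for 14 of the 16 libraries and ranged from 31900689 to 41632381, and normalized counts summed to between 33919726 and 38849817 per library. Labelled tissues carried their defining markers: all 6 sympathetic neuron markers and all 6 markers of satellite glia and Schwann cells had reads in every SCG group. In PSC and PSC+SCG libraries the summed neuron markers reached 1005 normalized counts at most, against at least 65185 in the nerve libraries. The explants also held RNA of fibroblasts, macrophages and vessel cells. In bulk libraries, fewer cells of a type and less RNA per cell cannot be told apart.

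Mstn was low in ganglia cultured alone and higher in every ganglion library cocultured with either fibroblast line. Its normalized counts, which are reads divided by the DESeq2 size factor of the library, were 41.5, 35.2 and 12.3 in SCG replicates 1 to 3. They were 354, 236 and 142 in SCG+MEF replicates 1 to 3, and 325, 172, 189 and 212 in SCG+PSC replicates 1 to 4. The lowest cocultured library therefore lay above the highest library without cells, and the 2 coculture groups overlapped throughout. The means were 29.7 ± 15.4 (SD, n = 3) in SCG, 244 ± 106 (SD, n = 3) in SCG+MEF and 225 ± 69.0 (SD, n = 4) in SCG+PSC. On the log2(normalized count + 1) scale, SCG+PSC lay 3.00 above SCG (standard error 0.42, 95% interval 2.08 to 3.92), an 8.00-fold difference. SCG+MEF lay 3.07 above the same SCG libraries (standard error 0.45, 95% interval 2.08 to 4.05), or 8.37-fold. Both comparisons share the SCG libraries as their control. Set directly against each other, SCG+PSC and SCG+MEF differed by -0.07 (standard error 0.42, 95% interval -0.98 to 0.85), less than the spread between libraries, and the interval allows a difference in either direction.

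**Figure D1:**
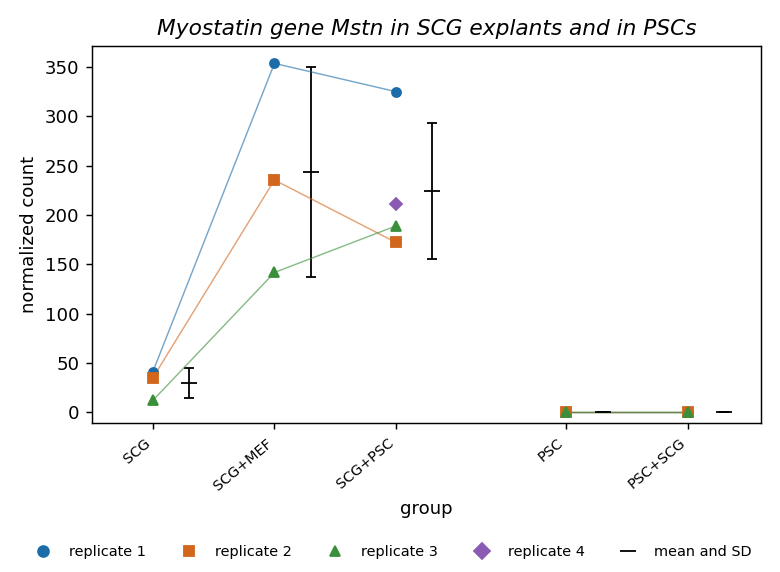
Normalized count of Mstn in each library by group (points, shape and color give the replicate number, thin lines join libraries with the same number), with the mean and SD beside the points; the nerve and PSC libraries were normalized separately. The SCG libraries sit between 12.3 and 41.5, the cocultured ganglia between 142 and 354, and all 6 PSC libraries at 0.

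The difference was present within each replicate number. Same-numbered libraries differed by 2.94, 2.26 and 3.84 on the log2 scale in SCG+PSC against SCG and by 3.06, 2.71 and 3.43 in SCG+MEF against SCG. In a fit with the replicate number as a block, the values were 3.01 (standard error 0.25) and 3.07 (standard error 0.25). Over replicates 1 to 3 of the 3 nerve groups, 86.0% of the spread of log2 Mstn lay between groups and 11.0% between replicate numbers.

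The cells on the insert that could be read did not carry Mstn. In all 3 PSC and all 3 PSC+SCG libraries Mstn was at 0, and a count of 0 allows up to 2.54 to 3.41 normalized counts per library with recovered reads. No NIH 3T3 library was analysed here. Skeletal muscle markers overlapped between the groups: the 7 of them summed to 24.3 to 48.2 normalized counts in SCG, 29.4 to 52.8 in SCG+PSC and 42.0 to 45.6 in SCG+MEF. Myog and Myf5 were at 0 in every nerve library. Myod1 was at 0 in every SCG+MEF library but had reads in SCG and in SCG+PSC. Markers of vessel cells differed in their means, the endothelial ones in the direction of Mstn and those of pericytes and smooth muscle in the other direction. All 5 endothelial markers (Pecam1, Cdh5, Kdr, Tek and Cldn5) had a higher mean in both cocultures, and their sums ran from 1167 to 1789 in SCG, 1821 to 2678 in SCG+PSC and 1789 to 2036 in SCG+MEF. All 5 pericyte and smooth muscle markers (Rgs5, Cspg4, Myh11, Pdgfrb and Kcnj8) had a lower mean in both cocultures, with sums of 38795 to 50364 in SCG, 28553 to 36082 in SCG+PSC and 31800.5 to 35894 in SCG+MEF. Most single markers overlapped SCG. In SCG+PSC 2 of 5 endothelial markers lay wholly above it and 0 of 5 pericyte and smooth muscle markers wholly below. In SCG+MEF these numbered 1 and 1. Of all genes, 5.16% and 6.62% did not overlap SCG in either direction. The 6 fibroblast markers also had higher means in both, with sums that overlapped (183932 to 363452 in SCG, 262920 to 365930 in SCG+PSC, 264129 to 381583 in SCG+MEF). Proliferation markers summed to 3350 to 14602 in SCG, 11961 to 21314 in SCG+PSC and 4396 to 15496 in SCG+MEF, and macrophage markers to between 4009 and 6367 across the 3 groups. Sympathetic neuron markers summed to 65185 to 149798 in SCG, 77652 to 136010 in SCG+PSC and 98271 to 145608 in SCG+MEF. Those of satellite glia and Schwann cells summed to 44593 to 57858, 45761 to 54920 and 50046 to 57832 in the same groups. Both sets of sums overlapped between the groups. The part of all these cells in the Mstn difference was not tested.

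Among 14228 protein-coding genes with a mean normalized count of at least 10, those whose log2 levels followed Mstn most closely over the 10 nerve libraries were Il4ra (Pearson r = 0.970), Scin (0.950), Calb2 (0.949), Gldn (0.945) and Rcbtb2 (0.943). All 5 had lower means in SCG than in either coculture, so the correlations carry the same split of 3 against 7 libraries. After the group means were taken out, r was 0.840 for Il4ra, 0.794 for Scin, 0.728 for Calb2, 0.849 for Gldn and 0.527 for Rcbtb2. Il4ra, which encodes the alpha chain of the interleukin-4 receptor, had 4092, 3504.5 and 3271 normalized counts in SCG. It had 6943, 6245 and 4758 in SCG+MEF and 6395, 5294, 5875 and 5577 in SCG+PSC, so that every cocultured library lay above every SCG library. Gldn, which encodes gliomedin, a Schwann cell protein of the nodes of Ranvier, had 5588, 4749 and 3646 in SCG, 9046, 6942 and 6075 in SCG+MEF, and 8385, 8586, 6946 and 7189 in SCG+PSC.

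The other ligands of the activin and myostatin branch, Gdf11 and Inhba, were expressed in both ganglia and PSCs. Gdf11, which shares receptors with myostatin, had 2525, 2169 and 2209 normalized counts in SCG, 2156, 1942 and 2070 in SCG+MEF and 2255, 1940, 1806 and 2099 in SCG+PSC. The SCG+MEF libraries all lay just under the lowest SCG library, while SCG+PSC overlapped SCG. Against SCG the log2 difference was -0.19 (standard error 0.10) in SCG+PSC and -0.16 (standard error 0.11) in SCG+MEF, the direction opposite to that of Mstn and small beside it. These errors are from the fit without the block. Every same-numbered pair went the same way, with differences of -0.16, -0.16 and -0.29 in SCG+PSC and of -0.23, -0.16 and -0.09 in SCG+MEF. In PSCs Gdf11 had 1314 ± 149 (SD, n = 3) alone and 1321 ± 194 (SD, n = 3) with ganglia, a log2 difference of 0.00 (standard error 0.16), and 97.6% of the spread over the 6 libraries lay between replicate numbers.

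Inhba, which encodes the inhibin beta A chain of activin A, varied widely among libraries of a group, and its level went with the replicate number. It had 1133, 4828 and 3662 normalized counts in SCG replicates 1 to 3, 1414, 3095 and 2816 in SCG+MEF replicates 1 to 3, and 1617, 3007, 2046 and 1960 in SCG+PSC replicates 1 to 4. In each of the 3 groups replicate 1 was the lowest and replicate 2 the highest. In the PSC table, replicate 2 was the lowest and replicate 3 the highest in both groups, with 1975, 1642 and 2983 in PSC and 2412, 1219 and 4302 in PSC+SCG. Between replicate numbers lay 79.5% of the log2 spread in the nerve libraries and 86.8% in the PSC libraries, and between groups 4.68% and 1.20%. In the fit without the block, the group differences were within that spread: -0.37 in SCG+PSC against SCG (standard error 0.44, 95% interval -1.33 to 0.59), -0.23 in SCG+MEF against SCG (standard error 0.47) and 0.13 in PSC+SCG against PSC (standard error 0.41). Single libraries moved these values: without SCG replicate 1 the first 2 were -1.0 and -0.86, and without SCG replicate 2 they were 0.04 and 0.18. SCG+MEF against SCG was 0.12 without SCG+MEF replicate 1. In PSCs leaving out replicate 3 of PSC+SCG gave -0.31 and leaving out its replicate 2 gave 0.60, and Inhba was called in none of these fits. Same-numbered pairs went both ways in each comparison. On the log2 scale they differed by 0.51, -0.68 and -0.84 in SCG+PSC against SCG and by 0.32, -0.64 and -0.38 in SCG+MEF against SCG. In PSC+SCG against PSC the pairs differed by 0.29, -0.43 and 0.53. Inhbb, the beta B chain, had 4505 ± 656.5 in PSC and 4648 ± 1003 in PSC+SCG (SD, n = 3 each). In ganglia it had 221 ± 76.1 in SCG, 321 ± 104 in SCG+MEF (SD, n = 3 each) and 298 ± 77.7 in SCG+PSC (SD, n = 4).

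The genes closest to Inhba in the nerve libraries were Ccn2 (r = 0.989), Cgnl1 (0.978), F2r (0.977), Apbb1ip (0.971) and Thbs1 (0.971), over the same 10 libraries and 14228 genes, and within groups r was 0.986 to 0.996 for all 5. Ccn2 encodes connective tissue growth factor, a TGF-β target, and Thbs1 encodes thrombospondin-1, which can release TGF-β from its latent complex. Ccn2 had 5156, 25844 and 18943 normalized counts in SCG replicates 1 to 3, 7294, 19364 and 15070 in SCG+MEF, and 9174, 17353, 10959 and 10442 in SCG+PSC, with the libraries of each group in the same order as for Inhba. In the PSC libraries the closest genes to Inhba among 12957 were Gtf2a2, Ptgs2, Rhoa, Btg3 and Pmpca (r = 0.996 to 0.999, n = 6), and Ptgs2, which encodes the prostaglandin synthase COX-2, ran from 1425 in PSC+SCG replicate 2 to 7936 in PSC+SCG replicate 3. Same-numbered libraries were not independent of each other in these correlations.

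**Figure D2:**
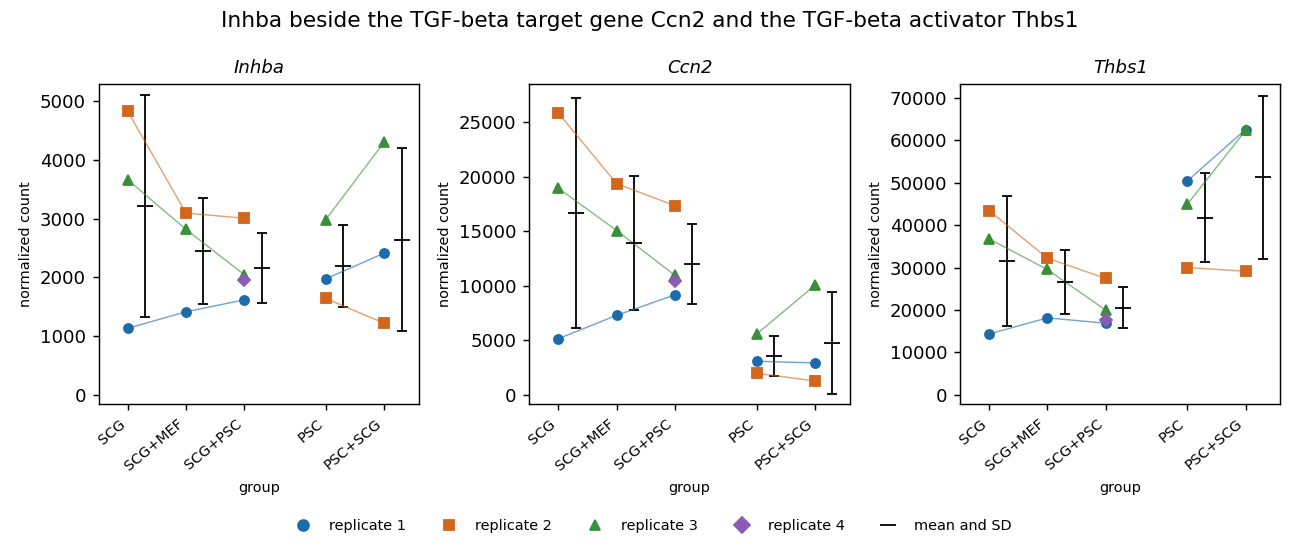
Normalized counts of Inhba, Ccn2 and Thbs1 in each library by group (points, shape and color give the replicate number, thin lines join same-numbered libraries), with the mean and SD beside the points; nerve and PSC libraries were normalized separately. In the SCG group the replicate 1 library is the lowest for each of the 3 genes, and within each table the ranges of the groups overlap for each of them.

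None of the 3 TGF-β ligands was past the threshold for a call, given below, in any comparison. Tgfb1, the principal TGF-β of injury and fibrosis, had 6211, 4999 and 4071 normalized counts in SCG, 5916, 4893 and 3758 in SCG+MEF and 5656, 4550, 4563 and 4285 in SCG+PSC. Libraries with the same number were again alike, with 87.6% of the log2 spread between numbers and 1.65% between groups. Its log2 differences from SCG were -0.08 (standard error 0.18) in SCG+PSC and -0.07 (standard error 0.19) in SCG+MEF. Tgfb2 had 2513, 2929 and 1903 in SCG, 2033, 1990 and 1875 in SCG+MEF and 1954, 1955, 1671 and 1633 in SCG+PSC. It was lower than the same-numbered SCG library in all 3 pairs of both comparisons, by 0.36, 0.58 and 0.19 log2 units in SCG+PSC and by 0.31, 0.56 and 0.02 in SCG+MEF, although the groups overlapped at SCG replicate 3. The fitted difference of SCG+PSC from SCG was -0.42 (standard error 0.14, 95% interval -0.73 to -0.12). In limma without the block the unadjusted p was 0.0111 and the adjusted p 0.851, so it passed neither the threshold on the adjusted p nor that of 0.5 log2 units. Its adjusted p depended on the processing. Over 13 alternatives in limma, edgeR or DESeq2, fits that left out 1 library aside, the lowest was 0.0220. The log2 differences there were -0.44 to -0.38, under 0.5 in size, so Tgfb2 was called in none. Tgfb3 had 3161 ± 162 in SCG, 3090 ± 315 in SCG+MEF (SD, n = 3 each) and 3048 ± 290.0 in SCG+PSC (SD, n = 4).

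In PSCs, Tgfb1 had 1147 ± 128 normalized counts alone and 1039 ± 142 with ganglia, and Tgfb3 had 876 ± 46.5 and 949 ± 150 (SD, n = 3 each). Tgfb2 was the member whose PSC groups did not overlap: it had 436, 452 and 394 in PSC and 454, 519 and 463 in PSC+SCG. That gap was narrow, between the 452 of PSC replicate 2 and the 454 of PSC+SCG replicate 1, and the log2 difference was 0.16 (standard error 0.15, 95% interval -0.18 to 0.50).

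The receptors overlapped between groups in every comparison. Tgfbr1, the type I TGF-β receptor, had 2908 ± 53.3 normalized counts in SCG, 3097 ± 454 in SCG+MEF (SD, n = 3 each) and 3118 ± 303 in SCG+PSC (SD, n = 4). Tgfbr2, the type II TGF-β receptor, had 4080 ± 367, 4505 ± 252 and 4435 ± 371 in the same groups. Acvr2b, the activin type II receptor that also binds myostatin, had 286 ± 37.8, 269 ± 49.3 and 290 ± 27.4, so the ganglia with more Mstn did not differ in it beyond the spread between libraries. In PSCs Tgfbr1 had 1107 ± 75.6 alone and 1302 ± 253 with ganglia, Tgfbr2 had 5470 ± 388 and 5597 ± 881, and Acvr2b had only 11.0 ± 2.91 and 16.2 ± 4.47 (SD, n = 3 each). In each of the 3 same-numbered pairs the PSC+SCG library had more Acvr2b, but the groups overlapped and its log2 difference of 0.51 had a standard error of 0.44. The alternative activin type II receptor Acvr2a had 770 ± 71.9 in PSC and 827 ± 148 in PSC+SCG, and the type I activin receptor Acvr1b had 757 ± 122 and 876 ± 48.4.

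Follistatin (Fst), the inhibitor among the 10, had 1605, 1675 and 2166 normalized counts in SCG, 1849, 1825 and 1969 in SCG+MEF and 2072, 1835, 2045 and 2217 in SCG+PSC. These overlapped, with log2 differences from SCG of 0.18 (standard error 0.12) and 0.06 (standard error 0.13). In PSCs it had 675, 278 and 450 alone and 770, 377 and 652 with ganglia, so each PSC+SCG library was above the PSC library of its number, by 0.19, 0.44 and 0.53 log2 units. The difference was 0.39 with a standard error of 0.36 without the block and of 0.13 with it.

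**Figure D3:**
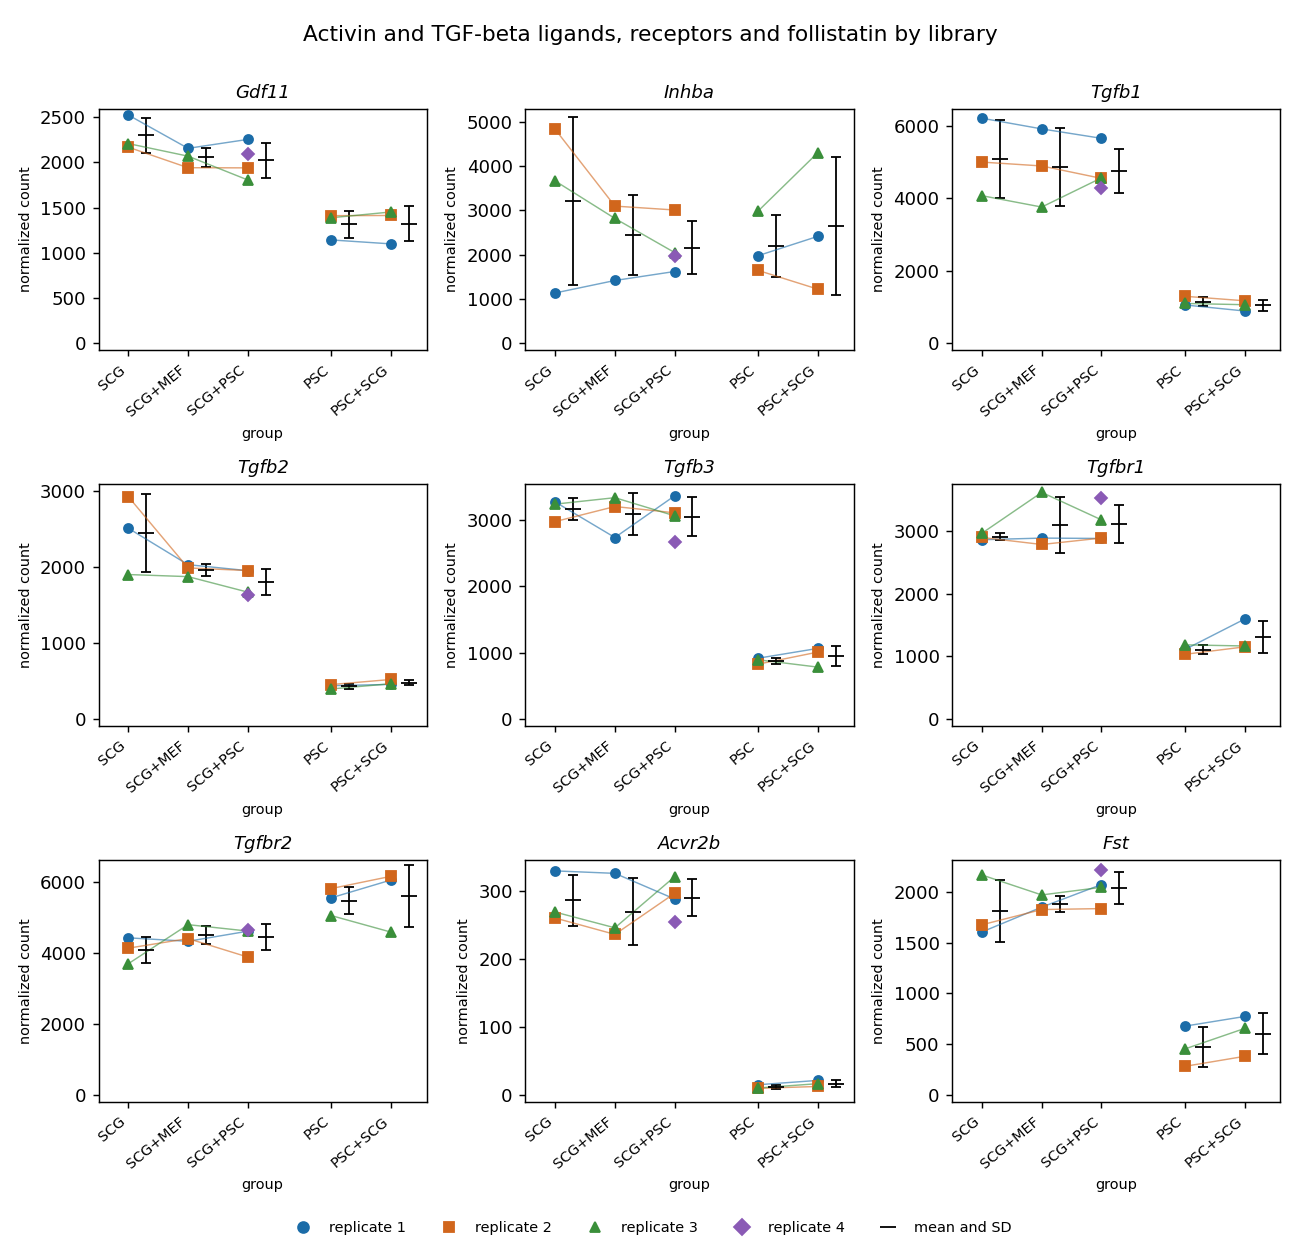
Normalized counts of the 9 other genes in each library by group (points, shape and color give the replicate number, thin lines join same-numbered libraries), with the mean and SD beside the points; nerve and PSC libraries were normalized separately, so levels are not to be read across the gap. Inhba is lowest in replicate 1 and highest in replicate 2 in each nerve group, and Acvr2b is near 0 in the PSC libraries.

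Levels of different genes were compared per kilobase of exon, within a group. In SCG the order of mean normalized counts per kilobase was Tgfb1 (1002 ± 211), Tgfb3 (606 ± 31.1), Gdf11 (545 ± 46.2), Tgfbr2 (464 ± 41.8), Inhba (451 ± 266), Tgfbr1 (439 ± 8.05), Tgfb2 (391 ± 82.5), Fst (385 ± 64.8), Acvr2b (25.5 ± 3.38) and Mstn (11.0 ± 5.68), each with the SD of 3 libraries. Of the 9 neighbours in that order, 5 overlapped in their libraries, and Tgfb1, Acvr2b and Mstn stood apart from their neighbours. In both cocultures Mstn passed Acvr2b without overlap (83.0 ± 25.5 against 25.9 ± 2.45 per kilobase in SCG+PSC, SD, n = 4). It remained below every other ligand there. In PSC the order began with Tgfbr2 (622 ± 44.1 per kilobase, SD, n = 3), which stood apart from Gdf11 (311 ± 35.3) and Inhba (309 ± 98.2), and ended with Acvr2b (0.986 ± 0.260) and Mstn at 0. In PSC+SCG Tgfbr2 also had the highest mean (637 ± 100 per kilobase, SD, n = 3), but its libraries overlapped those of Inhba (372 ± 219). By their means, PSCs thus ranked the TGF-β type II receptor first and ganglia ranked the ligand Tgfb1 first, within each table's own scale.

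**Figure D4:**
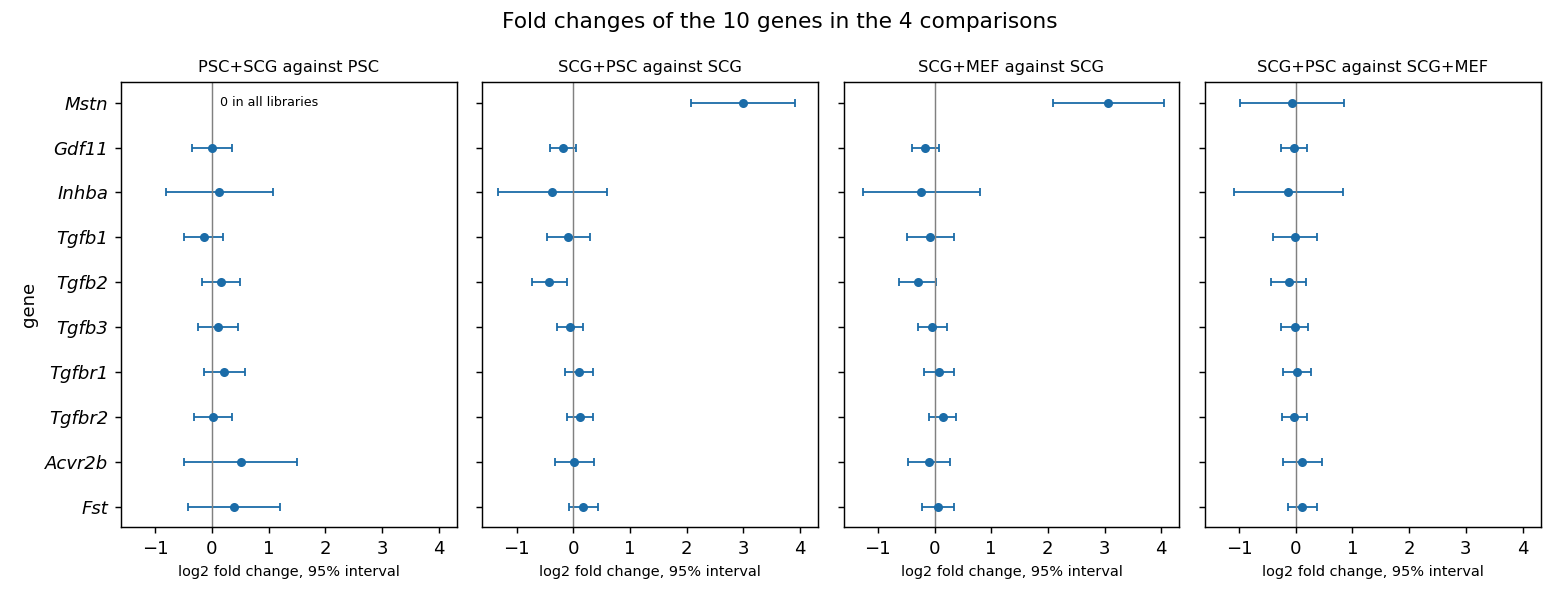
Log2 fold change of each of the 10 genes (rows) in each comparison (panels), with its 95% interval from limma; Mstn has no value in PSCs, where it was at 0. Mstn lies at 3.00 and 3.07 in the comparisons of cocultured ganglia with ganglia alone and at -0.07 between the cocultures, and the other 9 genes lie between -0.42 and 0.51 in all 4.

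Across all genes, calls were rare without the replicate block. To be called, a gene needed an adjusted p (limma, Benjamini-Hochberg over all genes tested) no higher than 0.05 and a log2 difference no smaller than 0.5 in size. In SCG+PSC against SCG this was met by 8 of 23779 genes (0.0336%) and by 1 of the 10 members, Mstn (adjusted p = 0.0462 in limma). In SCG+MEF against SCG it was met by 3 genes (0.0126%) and by none of the members, of which 1, Mstn, had an unadjusted p under 0.05 (adjusted p = 0.0833 in limma). Without 1 library the 8 became 3 to 9, with 3 without SCG+PSC replicate 4, 4 without SCG+PSC replicate 1 or 3 and 5 without SCG replicate 1 or 3. On recovered reads DESeq2 called 50 higher and 6 lower in SCG+PSC against SCG and 19 higher and 3 lower in SCG+MEF against SCG, Mstn among them in both, and edgeR called 3 genes in each, Mstn in neither. In SCG+PSC against SCG+MEF (0%) and in PSC+SCG against PSC (0%) limma called 0 genes, with 971 and 408 at an unadjusted p under 0.05, and no member had such a p. On recovered reads edgeR called 0 genes in both, and DESeq2 called 14 higher and 4 lower in the first and 1 higher and 1 lower in the second. The members called by edgeR and DESeq2 there also numbered 0, out of 10 tested in ganglia and 9 in PSCs. With the replicate block the share of all genes called was 1.31% in SCG+PSC against SCG, 0.160% in SCG+MEF against SCG, 0.786% in SCG+PSC against SCG+MEF and 0.461% in PSC+SCG against PSC, and the member counts were 1 (Mstn, adjusted p = 4.71e-04 in limma), 1 (Mstn, adjusted p = 2.92e-04), 0 and 0. Members whose groups did not overlap numbered 1 of 10 (Mstn) in SCG+PSC against SCG, where 5.16% of all genes tested did not. They numbered 2 of 10 (Mstn and Gdf11) in SCG+MEF against SCG (6.62%), 0 of 10 in SCG+PSC against SCG+MEF (4.77%) and 1 of 9 (Tgfb2) in PSC+SCG against PSC (5.60%). As the members were selected with these comparisons known, nothing is read from these counts against the background. The Mstn call of SCG+PSC against SCG was lost without any 1 of its 7 libraries (SCG replicates 1 to 3, SCG+PSC replicates 1 to 4), with log2 differences of 2.48 to 3.32 and adjusted p of 0.0510 to 0.215 in limma.

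The rest of the pathway was followed in 5 lists of 96 genes, drawn up by role, with earlier results of these data known. Of these, 87 were tested in ganglia and 78 in PSCs, and limma without the block called 0 in each of the 4 comparisons. At an unadjusted p under 0.05 in limma there were 10 in SCG+PSC against SCG, 5 in SCG+MEF against SCG, 7 in SCG+PSC against SCG+MEF and 1 in PSC+SCG against PSC. Of all genes tested, 1202, 802 and 971 of 23779 in ganglia and 408 of 21273 in PSCs had such a p. With the replicate block the counts in the lists were 24, 14, 15 and 15, beside 2525, 1783, 2774 and 1781 of all genes. EdgeR without the block also called 0 in all 4, and DESeq2 called 2, both lower, in SCG+PSC against SCG+MEF. With the replicate block limma called 1, 2, 3 and 0. In SCG+PSC against SCG the median log2 differences were 0.10 for the 20 other ligands tested, 0.04 for 11 other receptors, -0.04 for 26 antagonists and activators, 0.04 for 15 SMADs and regulators and 0.12 for 15 target genes, beside 0.01 for all genes tested. In SCG+MEF against SCG the other ligands had a median of 0.36 and ran from -0.74 to 1.31, and the remaining 4 lists had medians of -0.06 to 0.06, beside 0.03 for all genes. The medians of the 5 lists lay between -0.13 and 0.02 in SCG+PSC against SCG+MEF (-0.02 for all genes) and between 0.04 and 0.10 in PSC+SCG against PSC (0.01 for all).

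The genes called with the block are bone morphogenetic protein (BMP) ligands, a vascular receptor and a matrix proteoglycan, and they are named here after their values were seen. Gdf5, a BMP-class ligand of joint and neuron development, had 93.1, 66.6 and 65.6 normalized counts in SCG, 276, 156 and 132 in SCG+MEF and 71.0, 45.6, 38.5 and 54.5 in SCG+PSC. Every SCG+MEF library lay above all the others, and with the block the log2 difference was 1.26 in SCG+MEF against SCG (standard error 0.20, adjusted p = 0.0337 in limma) and -1.81 in SCG+PSC against SCG+MEF (standard error 0.20, adjusted p = 0.00995). Bmp4 also had its highest mean in SCG+MEF, with 316, 430.0 and 546 in SCG, 765.5, 532.5 and 714 in SCG+MEF and 348, 351, 303 and 414.5 in SCG+PSC, and the blocked difference between the cocultures was -0.99 (standard error 0.19, adjusted p = 0.0352 in limma). Acvrl1, which encodes the endothelial type I receptor ALK1, had 620, 980 and 493 in SCG, 472.5, 1489 and 506 in SCG+MEF and 1197, 1954, 1255 and 1140 in SCG+PSC. Its blocked log2 difference was 1.10 in SCG+PSC against SCG (standard error 0.17, adjusted p = 0.00964 in limma) and 1.01 in SCG+PSC against SCG+MEF (standard error 0.17, adjusted p = 0.0266), and the mean endothelial marker sum was also highest in SCG+PSC, whose part in this difference was not tested. Dcn, the proteoglycan decorin that binds TGF-β, had 2804 ± 238 in SCG and 4769 ± 1223 in SCG+MEF (SD, n = 3 each), a blocked difference of 0.74 (standard error 0.12, adjusted p = 0.0366 in limma). It had 4302 ± 1105 in SCG+PSC (SD, n = 4), where the blocked difference from SCG of 0.51 did not pass (adjusted p = 0.0651). Dcn is also 1 of the 6 fibroblast markers, all 6 of which had higher means in both cocultures than in SCG, with sums of 183932 to 363452 normalized counts in SCG, 264129 to 381583 in SCG+MEF and 262920 to 365930 in SCG+PSC, and their part in the Dcn difference was not tested.

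**Figure D5:**
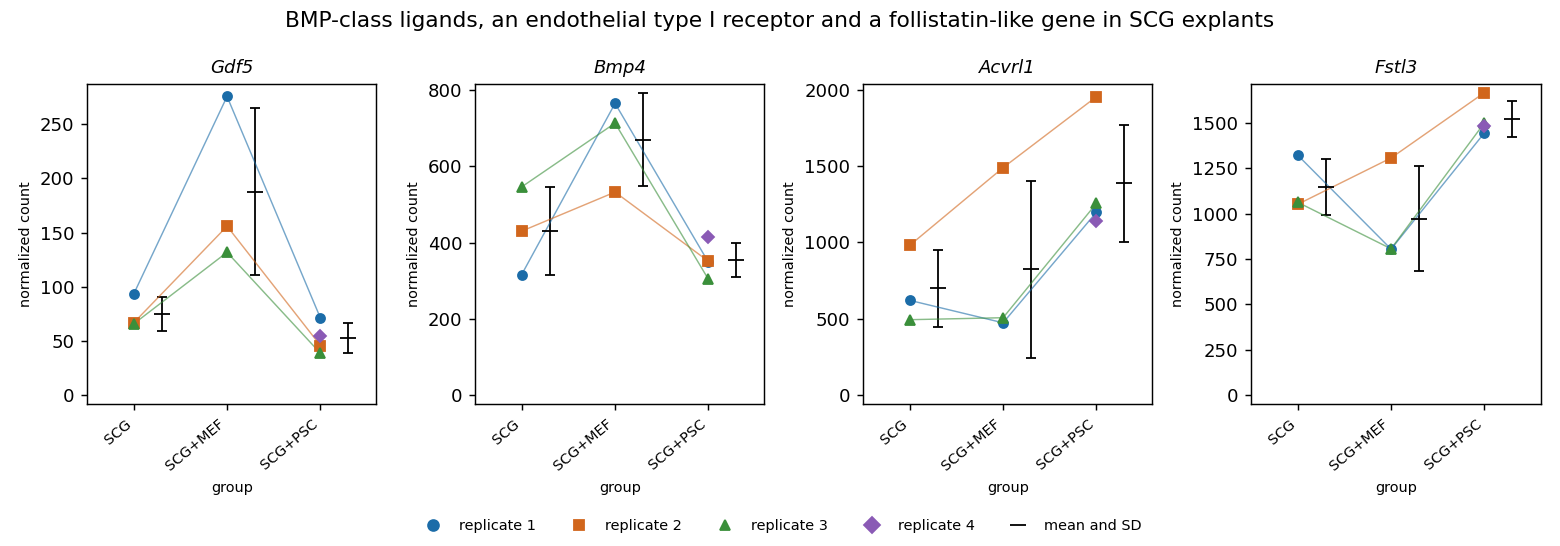
Normalized counts of Gdf5, Bmp4, Acvrl1 and Fstl3 in each nerve library by group (points, shape and color give the replicate number, thin lines join same-numbered libraries), with the mean and SD beside the points. Gdf5 lies at 132 to 276 in SCG+MEF and at 38.5 to 93.1 in the other 2 groups, while Acvrl1 lies at 1140 to 1954 in SCG+PSC and at 472.5 to 1489 in the others.

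The other regulators named for their roles were not called in limma with or without the block. Fstl3, a follistatin-like inhibitor of activin and myostatin, had 1322, 1051 and 1062 normalized counts in SCG, 804, 1307 and 806 in SCG+MEF and 1446, 1668, 1501 and 1481 in SCG+PSC. All 4 SCG+PSC libraries lay above every library of the other groups, and the log2 difference from SCG+MEF was 0.68 (standard error 0.17, adjusted p = 0.9998 in limma, 0.0568 with the block). Fstl1, a secreted glycoprotein with a follistatin-like domain, had 23509 ± 7796 in SCG, 24347 ± 6785 in SCG+MEF (SD, n = 3 each) and 22867 ± 2936 in SCG+PSC (SD, n = 4). The latent TGF-β binding protein gene Ltbp1 had 4032 ± 1069, 3547 ± 695 and 3742 ± 527 in the same groups. Of the proteases that cut the prodomains of these ligands, Bmp1 had 32070 ± 12043, 31826 ± 13113 and 31620 ± 7472, and Furin had 9631 ± 1250, 8215 ± 1073 and 8955 ± 1032. Bmp1 can free myostatin from its latent complex, and its groups overlapped where those of Mstn did not.

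No gene of the list of SMADs and regulators was called in limma, with or without the block. Smad2 and Smad3, which carry the activin and TGF-β signal, had log2 differences of 0.06 (standard error 0.14) and 0.15 (standard error 0.12) in SCG+PSC against SCG. Smad4, their common partner, had 0.05 (standard error 0.09), and the inhibitory Smad7, itself a TGF-β target, had -0.01 (standard error 0.19). Acvr1b and Acvr2a had -0.06 (standard error 0.15) and 0.11 (standard error 0.16), and the TGF-β coreceptor gene Tgfbr3, 4.34% of whose exon bases lay in exons of another gene on the same strand, had 0.23 (standard error 0.11). Among the targets, Ccn2 had -0.23 (standard error 0.49) and Tgfbi, which encodes a matrix protein induced by TGF-β, 0.17 (standard error 0.15). In PSC+SCG against PSC the same 2 targets had 0.05 (standard error 0.67) and 0.37 (standard error 0.45). The 95% interval of Ccn2 in SCG+PSC against SCG ran from -1.31 to 0.85, so that differences of either sign were within the spread between libraries. The errors given here are from the fit without the block. Between replicate numbers lay 81.8% of the Ccn2 spread in the nerve libraries, and its same-numbered pairs differed by 0.83, -0.57 and -0.79. With the block, 7 of 15 targets and 2 of 15 SMADs and regulators had an unadjusted p under 0.05 in limma in SCG+PSC against SCG. Without it 1 and 0 had.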

How the data were processed

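Expression was measured by stranded bulk RNA-seq in 6 PSC and 10 nerve libraries. Per the labels and methods, the authors aligned reads to GRCm39 with STAR 2.7.10b, counted them per gene on GENCODE M33 and divided each library by its DESeq2 1.38.3 size factor, separately for the PSC and the nerve libraries. The deposited values are thus a signal, normalized counts, and were tested here as log2(normalized count + 1) in limma 3.58.1 (R 4.3.3, empirical Bayes with a trend), over genes that summed to at least 10, with Benjamini-Hochberg adjustment. Groups came from the labels, and the nerve fit held all 10 libraries. A heat map in the study shows 3 SCG+PSC samples, which no label ties to libraries, and all 4 deposited ones were used here. The study's model held a batch date that no label ties to a library, so the replicate number was tried as a block. Deviations from group means correlated at 0.231 to 0.475 in the 3 same-numbered PSC pairs and at 0.135 to 0.382 in the 9 nerve pairs, against at most 0.121 between other numbers, so the numbers were taken to pair the libraries. SCG+PSC replicate 4 has no partner, and the blocked fit gives it no weight.

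Whole reads were recovered for 14 libraries, in which 100% of values were whole within 0.1, and not for PSC+SCG replicate 1 and SCG+PSC replicate 4. These reads entered edgeR 4.0.16 (TMM) and DESeq2 1.42.0 as alternatives. The other alternatives were pseudocounts of 0.5 or 8, a stricter filter (10 or more in 3 or more libraries) or none, quantile normalization, the protein-coding genes alone for adjustment, no fold minimum, the 2 compared groups only and leaving out each library. Coordinates and exon lengths came from GENCODE M39 on GRCm39. The members and lists were chosen with earlier results of these data known. Named were all members, up to 4 called genes of each list, 16 pathway genes taken for their roles (1 of them is not reported here), and the 5 genes most like Mstn or Inhba. Floors cover counting error only.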

Additional observations from a re-analysis of the deposited data

Results flagged for a closer look

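Among the 4 SCG+PSC libraries, the lowest or highest value was examined for 26 genes, the 10 members and the 16 pathway genes taken for their roles. Tgfbr2 had 1 library far from the others: its gap to the nearest library was 0.956 of the range, since replicate 2 had 3878 normalized counts and the others 4607, 4612 and 4641. Chance flags about 1 in 20 such groups, so 1 of 26 is within what chance gives.

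In limma with the replicate block, 3 pathway genes were past the threshold in SCG+PSC against SCG+MEF. Each group had 1 fibroblast line, and the lists were drawn up with earlier results of these data known. The log2 difference was 1.01 for Acvrl1 (higher in SCG+PSC in 3 of 3 same-numbered pairs), -0.99 for Bmp4 (lower in 3 of 3) and -1.81 for Gdf5 (lower in 3 of 3), where the adjusted p in limma was 0.0266, 0.0352 and 0.00995. Without the block none of the 3 passed, with adjusted p in limma of 0.9998, 0.780 and 0.588. The summed proliferation markers ran from 11961 to 21314 normalized counts in SCG+PSC and from 4396 to 15496 in SCG+MEF, and the summed endothelial markers from 1821 to 2678 and from 1789 to 2036. Fibroblast sums (262920 to 365930 and 264129 to 381583) and pericyte and smooth muscle sums (28553 to 36082 and 31801 to 35894) overlapped too, and the part of these cells in the 3 differences was not tested.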

How the results depend on the processing

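The count of members called in SCG+PSC against SCG was 1 (Mstn) and fell to 0 with the stricter filter (10 or more in 3 or more libraries), with no filter, in the fit of the 2 compared groups only, with edgeR on recovered reads, and in all 7 fits that left out 1 library (0 to 0). The adjusted p of Mstn ranged from 1.91e-22 to 0.280 over the 13 other alternatives, with log2 differences of 2.68 to 3.03, and in SCG+MEF against SCG from 2.57e-23 to 0.700, with 2.75 to 3.09. In SCG+MEF against SCG the count was 0 and became 1 (Mstn) with the replicate block, with DESeq2, and with edgeR or DESeq2 with the replicate block. The count of pathway genes, 0 without a block in every comparison, became 1 in SCG+PSC against SCG with the replicate block in limma and edgeR and 2 in DESeq2. In SCG+MEF against SCG it became 2, 2 and 3, and in SCG+PSC against SCG+MEF 3, 3 and 5, and 2 with DESeq2 without the block. The replicate block changed no other call among members and pathway genes. None of the 734 member fold changes under an alternative moved by more than 1 SD of the libraries, taken as the larger log2 SD of the 2 compared groups. That measure is wide for a gene that varies among libraries as Inhba did, so this count does not show that such values are stable. Of the 39 differences, 20 changed sign under at least 1 alternative, all of them at most 0.37 in size. Mstn against SCG kept its direction throughout. The cause of the lost calls was not tested. Over all genes, the 8 called in SCG+PSC against SCG became 284 higher and 28 lower with the replicate block, 50 and 6 with DESeq2, and 3 with edgeR or with the 2 compared groups only. The 3 of SCG+MEF against SCG became 27 and 11 with the block, 19 and 3 with DESeq2, 5 with quantile normalization or adjustment over protein-coding genes, and 1 with the 2 compared groups only. The 0 of SCG+PSC against SCG+MEF and of PSC+SCG against PSC became 157 and 30, and 67 and 31, with the block. With a pseudocount of 8 in place of 1, Mstn in SCG+PSC against SCG went from 3.00 to 2.68 and Acvr2b in PSCs from 0.51 to 0.34.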
